A study of Homo sapiens with 6 samples.

Results

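The mitochondrial ribosomal protein genes are the nuclear genes whose products make up the protein part of the mitochondrial ribosome. They were chosen by symbol, as the genes named MRPL or MRPS followed by a number and, in some cases, a letter from A to C. The match to symbols used no expression values, although the genes and rules were chosen with earlier results of these data known. The symbol rule found 77 genes among the 19421 genes with a common scale in the table, and 76 of them had a mean of at least 1 FPKM and were tested. FPKM scales the reads counted for a gene by its length and by the sample's depth, so levels can be set side by side between genes as well as between samples. Of the 77 genes, 50 encode large subunit proteins and 26 encode small subunit proteins. The last, MRPS36, carries the symbol but is named KGD4 in RefSeq, and its product is a component of the alpha-ketoglutarate dehydrogenase complex rather than of the ribosome. MRPS30 and MRPS18A are counted with the large subunit, where their products sit in spite of the letter S. MRPL58, which encodes a peptidyl-tRNA hydrolase built into the large subunit, was not analysed here.

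Gene expression was measured by RNA sequencing of total RNA from A431, a human squamous carcinoma cell line, grown in DMEM with 10% FBS. The shCONTROL group comprised 3 samples of cells with a control shRNA, and the shARID1A group 3 samples of cells with an shRNA that targets ARID1A, a subunit of the SWI/SNF chromatin remodelling complex. Neither the number of different shRNAs nor the origin of replicates from separate cultures is stated in the labels. P-values therefore measure only how far these samples spread, and that spread may be technical. In bulk samples, fewer cells of a type and less RNA per cell cannot be told apart.

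The mitochondrial ribosome translates the few proteins encoded by mitochondrial DNA, all of them subunits of the respiratory chain and the ATP synthase. Its RNAs come from the mitochondrial genome, whereas all of its proteins are encoded in the nucleus, made in the cytosol and imported. Many of these proteins have a counterpart in the bacterial ribosome, and the others were added during the evolution of mitochondria. Bacterial counterparts cluster around the catalytic and decoding centres, and the added proteins lie mostly at the surface.

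The assigned reads per sample, recovered from the FPKM values, numbered 31658040 to 36453744. ARID1A had 22.8, 22.8 and 23.8 FPKM in the shCONTROL samples and 6.70, 7.62 and 7.31 FPKM in the shARID1A samples. Every shARID1A sample lay below every shCONTROL sample, and the mean was 68.8% lower (log2 fold change -1.55, adjusted p = 0.000187, limma, adjusted by the Benjamini-Hochberg method over the 11599 genes tested; exact two-sided permutation p = 0.1, the smallest that 3 against 3 samples allow). Of the 6 squamous epithelial markers, KRT5, KRT17, TP63, EGFR and DSP were above 1 FPKM in all samples, whereas KRT14 had 0.0706 to 0.847 FPKM. The 3 endothelial markers and the 3 leukocyte markers analysed were all under 1 FPKM. The 5 fibroblast markers summed to 6.56 to 8.95 FPKM with shCONTROL and 10.3 to 12.5 FPKM with shARID1A, with only COL1A1 and LUM above 1 FPKM. LUM had 3.88 to 5.97 FPKM with shCONTROL and 7.39 to 9.96 FPKM with shARID1A, whereas COL1A1 overlapped (2.39 to 3.13 against 2.25 to 2.70 FPKM). The squamous markers KRT5 (59.5 to 96.5 against 44.6 to 45.8 FPKM), TP63 (47.3 to 47.9 against 32.7 to 36.8 FPKM) and DSP (53.4 to 56.9 against 33.9 to 35.0 FPKM) were lower in every shARID1A sample. The other 3 squamous markers overlapped between the groups: EGFR (30.9 to 34.3 against 34.2 to 40.6 FPKM), KRT17 (908 to 1150 against 754 to 1270 FPKM) and KRT14. The sum of the 6 squamous markers overlapped as well (1100 to 1390 FPKM with shCONTROL against 905 to 1420 FPKM with shARID1A). The part of these markers in the results was not tested.

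The genes were expressed over a range from 6.63 to 227 FPKM among the 76 tested (means over the 6 samples), with a median of 33.6 FPKM, against a median of 10.5 FPKM over all genes tested. The top of the order was MRPL11, which encodes the protein at the base of the flexible stalk where translation factors bind. MRPL51, which encodes a large subunit protein with no counterpart in bacteria, came second, with 156, 163 and 169 FPKM in the shCONTROL samples and 168, 177 and 156 FPKM in the shARID1A samples. Its groups overlapped, and each of its samples lay below each MRPL11 sample. MRPL3, which encodes a protein close to the catalytic centre, was next, with 122, 121 and 121 FPKM against 146, 116 and 137 FPKM. MRPL3 and MRPL45, which followed it, did not differ beyond their spread in the shARID1A samples, whereas in the shCONTROL samples MRPL45 was the higher. At the bottom of the genes tested, MRPS14 (6.93, 7.06 and 8.15 FPKM against 5.11, 6.45 and 7.43 FPKM) and MRPS18B (6.50, 6.97 and 6.25 FPKM against 6.14, 7.84 and 6.09 FPKM) overlapped each other.

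This order depends on the gene lengths used to compute FPKM. The lengths in the table were set beside the bases covered by the exons of all transcripts of a gene in GENCODE 29, a comparison chosen after seeing the data. The ratio of the table's length to that of GENCODE ran from 0.155 (MRPL46 and MRPS33) to 5.69 (MRPS18B, 10738 against 1888 bases), and it was under 1 for 68 of the 77 genes. With the GENCODE lengths MRPL11 was still the highest, at 151.8 FPKM, followed by MRPL45 (126.5 FPKM), MRPL12 (107.9 FPKM) and MRPS34 (107.6 FPKM). MRPL3 (82.6 FPKM) and MRPL51 (72.0 FPKM) then ranked 6 and 7, and MRPS18B (37.7 FPKM) ranked 16, so the places named above for these 3 genes hold only for the deposited lengths. A gene's length is the same in all 6 samples, so the order of the samples within a gene does not depend on it. The length does set the FPKM to which 1 is added, and so bears on the filter and on the size of a log2 fold change.

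MRPS24, which encodes a small subunit protein with a bacterial counterpart, was the only gene of the 77 that did not pass the filter. It had 0 to 10 recovered reads per sample, or 0.0908, 0 and 0.415 FPKM with shCONTROL and 0.158, 0.265 and 0.0415 FPKM with shARID1A. In RefSeq a read-through gene, URGCP-MRPS24, spans 100% of MRPS24, and reads that fall on both cannot be told apart, so this value cannot be taken as the level of the transcript.

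**Figure D1:**
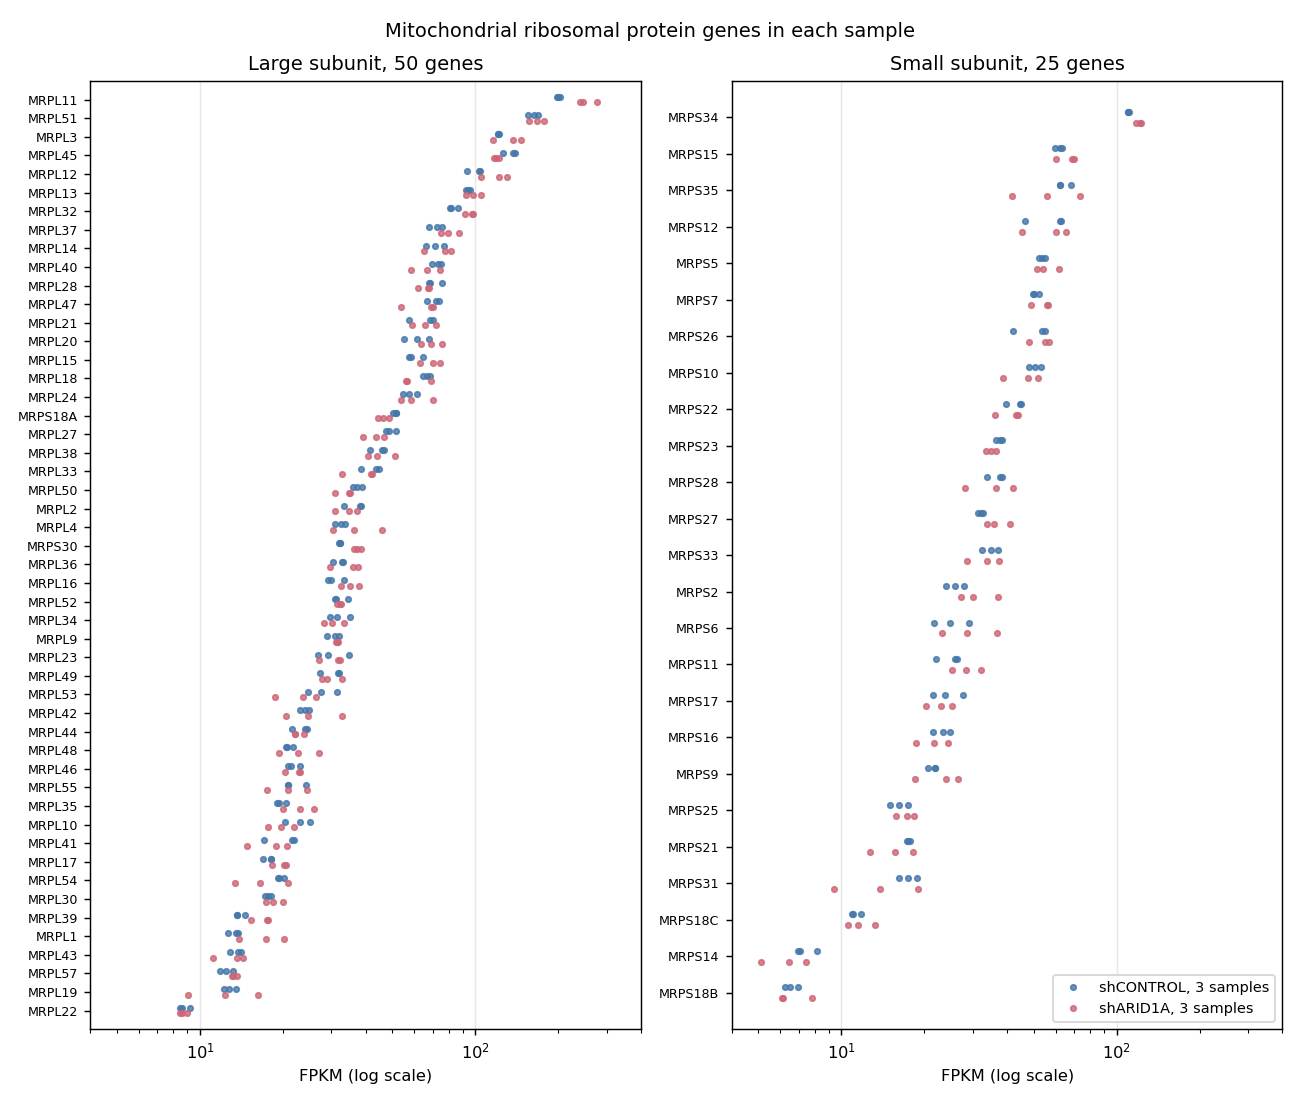
FPKM of each gene in each sample on a log axis, with 50 large subunit genes on the left and the 25 tested small subunit genes on the right, ordered by mean level. Blue points are the 3 shCONTROL samples and red points the 3 shARID1A samples, and for most genes the points of the groups overlap, MRPL11 at the top left being an exception.

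Summed over the 77 genes, the level was 3417, 3385 and 3271 FPKM in the shCONTROL samples and 3517, 3511 and 3376 FPKM in the shARID1A samples. The lowest shARID1A sample, replicate 3, lay below the shCONTROL replicates 1 and 2, so the groups overlapped. The group means were 3358 ± 76.4 and 3468 ± 79.4 FPKM (SD, n = 3 each). As a share of the assigned reads, the genes took 0.464% ± 0.011 with shCONTROL and 0.483% ± 0.0041 with shARID1A (SD, n = 3 each). On this scale the groups did not overlap, with 0.473%, 0.469% and 0.452% for shCONTROL against 0.487%, 0.485% and 0.479% for shARID1A. The share taken by the large subunit genes did not overlap either (0.316% to 0.328% against 0.335% to 0.344%), while that of the small subunit genes did. MRPL11, a large subunit gene higher in every shARID1A sample, counts in both of the shares that did not overlap. Neither share was computed without MRPL11, so the separation is not shown for the other genes. With 3 samples per group an exact permutation test cannot reach p = 0.05, and none was run on these shares. The large subunit genes summed to 2440 ± 49.9 against 2538 ± 82.0 FPKM, and the small subunit genes to 903.4 ± 25.5 against 920.1 ± 9.1 FPKM (SD, n = 3 each).

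Comparing shARID1A with shCONTROL gene by gene, 1 of the 76 genes passed the test, MRPL11, which was higher with shARID1A, and none passed lower. That is 1.32% of the genes, against a background of 16.8% of all genes tested (5.85% higher and 10.9% lower) at an adjusted p under 0.05 by limma. At an unadjusted p under 0.05, 7 of the 76 genes (9.21%) were counted, against 33.9% of all genes tested. These 7 were MRPL11, MRPL1, MRPL39, MRPL12, MRPS30 and MRPL32, all higher, and MRPS36, lower. The groups did not overlap for 15 genes (19.7%, against 38.8% of all genes tested), 9 of them higher (11.8%, against 13.4%) and 6 lower (7.89%, against 25.4%).

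The number of genes called moved with the samples and the scaling used. After each sample was corrected for the GC content of the transcripts, an alternative chosen after seeing the data, 13 of the 76 genes were called higher and none lower. In that fit 27.3% of all genes tested were called in either direction, 1664 higher and 1501 lower of 11599. Without shARID1A replicate 3, 3 genes were called higher (MRPL11, MRPL12 and MRPS2) and 3 lower (MRPS31, MRPS35 and MRPS36), beside 29.3% of all genes tested. Without shARID1A replicate 2, MRPL1 and MRPL11 were called higher and none lower, beside 14.4% of all genes tested. With any single shCONTROL sample left out, or without shARID1A replicate 1, no gene of the 76 was called. In these fits the share of all genes called also dropped, to 6.45%, 5.06% and 12.1% without shCONTROL replicates 1, 2 and 3 and to 6.78% without shARID1A replicate 1.

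The differences were small in size. Of the 76 genes, 36 (47.4%) had a log2 fold change within 0.1 of 0 and 69 (90.8%) within 0.25, against 26.2% and 58.0% of all genes tested. The median log2 fold change was 0.01, with a range from -0.47 to 0.34, and 41 genes (53.9%) had a positive value. Over all genes tested the median was -0.08 and 38.1% had a positive value. A gene that misses the threshold is not thereby shown to be equal between the groups, and the 95% confidence intervals of the log2 fold change give the sizes that the data allow. This interval lay within 1.5-fold either way for 70 of the 76 genes (92.1%) and within 2-fold for all 76. Over all genes tested, 61.4% of the intervals lay within 1.5-fold and 92.4% within 2-fold. Among the 7365 genes tested with a mean of at least 6.63 FPKM, the level of the lowest of the 76, 68.1% lay within 1.5-fold and 16.9% were called. In that set the median log2 fold change was -0.051, and 42.6% of the genes had a positive value.

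**Figure D2:**
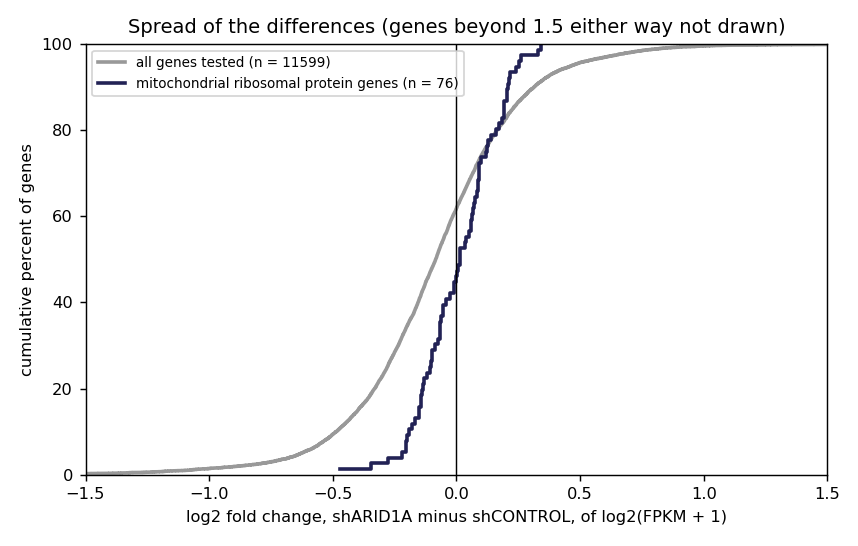
Cumulative percent of genes (vertical axis) at or below a log2 fold change of log2(FPKM + 1), shARID1A minus shCONTROL (horizontal axis), for the 76 mitochondrial ribosomal protein genes (dark line) and all 11599 genes tested (grey line). The dark line is steeper and runs from -0.47 to 0.34, with 90.8% of the genes within 0.25 of 0, against 58.0% for the grey line.

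MRPL11 (gene ID 65003) had 203, 198 and 199 FPKM in the shCONTROL samples and 246, 275 and 239.8 FPKM in the shARID1A samples. All shARID1A samples lay above all shCONTROL samples, and the shCONTROL samples were close to each other. The means were 199.8 ± 2.46 and 253.8 ± 19.0 FPKM (SD, n = 3 each), a log2 fold change of 0.34 (SE 0.08, 95% interval 0.15 to 0.53, adjusted p = 0.0292, limma with Benjamini-Hochberg adjustment). Over 22 alternatives its log2 fold change stayed between 0.28 and 0.42, with adjusted p from 0.00509 to 0.139. The call was lost in 6 of them, which were the fit with no filter on low values, the replicate block with cyclic loess normalization, and leaving out any single shCONTROL sample or shARID1A replicate 1. With 10897 to 15251 recovered reads per sample it was also deeply measured.

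As the gene that passed the test, MRPL11 is shown with the start of its RefSeq gene in GRCh38.p14. The sequence below is the 250 bases before the annotated start on the minus strand, chr11:66438849-66439098, written 5′ to 3′ in the direction of transcription. It is followed by a window of 30 bases after the start, chr11:66438806-66438835, in which the capitals mark a YY1 core, the 7 letters AAGATGG.
MRPL11 before the start: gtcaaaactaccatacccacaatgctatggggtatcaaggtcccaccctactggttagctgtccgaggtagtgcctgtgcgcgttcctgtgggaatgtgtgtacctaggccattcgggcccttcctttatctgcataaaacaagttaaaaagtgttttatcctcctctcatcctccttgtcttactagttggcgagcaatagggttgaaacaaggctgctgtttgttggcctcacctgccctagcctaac
MRPL11 after the start: acctctggcccAAGATGGtggcgcccagag

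The other stalk genes did not pass the test. MRPL12, which encodes the protein of the mobile stalk arms, had 104, 103 and 93.0 FPKM with shCONTROL and 130.2, 121 and 104 FPKM with shARID1A. The lowest shARID1A sample lay just above the highest shCONTROL sample. The means were 99.9 ± 6.04 and 118.7 ± 13.1 FPKM (SD, n = 3 each; log2 fold change 0.24, SE 0.10, adjusted p = 0.142, limma), and it was called in 5 of 22 alternatives. MRPL10, which encodes the protein that anchors the arms to the ribosome, had 25.2, 23.0 and 20.3 FPKM with shCONTROL and 19.7, 22.0 and 17.6 FPKM with shARID1A, and its groups overlapped.

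Among the 30 large subunit genes with a bacterial counterpart, all of which were tested, the median log2 fold change was 0.06, and 19 of the values were positive. MRPL11 was the only gene called in this group. MRPL1, which encodes the protein of a second stalk beside the site where spent tRNAs leave, had 13.7, 12.7 and 13.5 FPKM with shCONTROL and 17.4, 13.9 and 20.2 FPKM with shARID1A. The groups did not overlap, but the shARID1A samples were far apart (log2 fold change 0.33, 95% interval 0.02 to 0.64, adjusted p = 0.127, limma). MRPL32, whose product is cut by the m-AAA protease of the inner membrane before it joins the ribosome, had 86.8, 81.2 and 80.8 FPKM with shCONTROL and 97.7, 91.9 and 97.3 FPKM with shARID1A. Again the groups did not overlap, and the difference missed the threshold (log2 fold change 0.20, adjusted p = 0.116, limma). MRPL1 was called higher in 5 of 22 alternatives and MRPL32 in 2.

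Of the 20 large subunit genes with no bacterial counterpart that were tested, none was called, and the median log2 fold change was -0.02. MRPL45, whose product lies at the exit of the peptide tunnel and holds the ribosome to the inner membrane, had 139, 137 and 126 FPKM with shCONTROL and 118, 117 and 122 FPKM with shARID1A. It was lower in every shARID1A sample, by a log2 fold change of -0.17 (95% interval -0.35 to 0.02, adjusted p = 0.184, limma). MRPL39, whose product resembles a tRNA synthetase, lay the other way, with 14.5, 13.6 and 13.6 FPKM against 15.3, 17.5 and 17.7 FPKM (log2 fold change 0.25, adjusted p = 0.111, limma). MRPS30, one of the S-named genes of this subunit, had 32.2, 31.9 and 32.2 FPKM with shCONTROL and 37.3, 38.4 and 36.3 FPKM with shARID1A. Its samples were close within each group and the groups did not overlap (log2 fold change 0.21, adjusted p = 0.108, limma). MRPS30 was called higher in 4 of 22 alternatives and MRPL39 in 2. MRPL44, whose product has the fold of a ribonuclease, had 21.6, 24.1 and 24.5 FPKM against 23.9, 22.1 and 22.1 FPKM. These overlapped, and the sign of its log2 fold change of -0.04 turned in 5 of 22 alternatives.

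None of the 25 small subunit genes tested was called by limma, none had an unadjusted p under 0.05, and their median log2 fold change was 0.015. MRPS12, whose product lines the decoding centre, had 62.5, 62.3 and 46.4 FPKM with shCONTROL and 60.3, 65.7 and 45.3 FPKM with shARID1A. Replicate 3 was the low sample in each group, the means were 57.1 FPKM in each, and the sign of the log2 fold change (-0.004) turned in 8 of 22 alternatives. MRPS27, whose product is an RNA-binding pentatricopeptide repeat protein, had 31.4, 32.1 and 32.8 FPKM against 33.8, 36.0 and 41.1 FPKM, without overlap (log2 fold change 0.19, 95% interval -0.03 to 0.42, adjusted p = 0.204, limma). MRPS27 was called higher in 2 of 22 alternatives. MRPS34, which encodes a small subunit protein added in mitochondria and was the most highly expressed gene of this subunit, had 110.2, 110.6 and 109.7 FPKM against 117, 121 and 123 FPKM. Its groups did not overlap either (log2 fold change 0.13, 95% interval -0.05 to 0.30, adjusted p = 0.277, limma), although EME2 overlaps 26.2% of its span in RefSeq.

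MRPS31 and MRPS35, both small subunit genes with no bacterial counterpart, had the widest 95% intervals of the 76 genes. MRPS31 had 16.3, 17.4 and 18.8 FPKM with shCONTROL and 13.8, 9.40 and 19.0 FPKM with shARID1A. MRPS35 had 68.1, 62.3 and 62.4 FPKM with shCONTROL and 55.8, 41.7 and 73.6 FPKM with shARID1A. For each, shARID1A replicate 3 lay above every shCONTROL sample while the other shARID1A samples lay below them all. The log2 fold changes were -0.34 (adjusted p = 0.284, limma) and -0.21 (adjusted p = 0.456, limma).

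The 3 genes of the MRPS18 family are related copies whose products occupy different places in the ribosome. MRPS18A, of the large subunit, had 51.6, 50.4 and 51.7 FPKM with shCONTROL and 46.1, 48.6 and 44.4 FPKM with shARID1A. It was lower in every shARID1A sample (log2 fold change -0.14, 95% interval -0.33 to 0.05, adjusted p = 0.261, limma). MRPS18C, the counterpart of the bacterial protein, had 11.0, 10.9 and 11.8 FPKM against 13.3, 10.6 and 11.5 FPKM (log2 fold change 0.06, 95% interval -0.19 to 0.31). The groups of MRPS18C and those of MRPS18B (log2 fold change 0.02, 95% interval -0.26 to 0.29) overlapped, and the sign turned in 1 and 2 of 22 alternatives. The differences between the copies were not tested.

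MRPS36, the gene whose product is not a ribosomal subunit, had the most negative log2 fold change of the 76 genes. It had 13.0, 17.1 and 12.3 FPKM with shCONTROL and 10.5, 8.48 and 10.7 FPKM with shARID1A. All shARID1A samples lay below all shCONTROL samples, the means were 14.2 ± 2.58 and 9.88 ± 1.22 FPKM (SD, n = 3 each), and the log2 fold change of -0.47 missed the threshold (SE 0.15, adjusted p = 0.0584, limma). MRPS36 was called lower in 2 of 22 alternatives. Without MRPS36, the lowest log2 fold change was the -0.34 of MRPS31. MRPL51, MRPL3, MRPS14, MRPS18A to MRPS18C, MRPL12, MRPL45, MRPS12, MRPS27, MRPL44 and MRPS24 were named by rule, and the other genes named beside MRPL11 were picked after their values were seen.

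**Figure D3:**
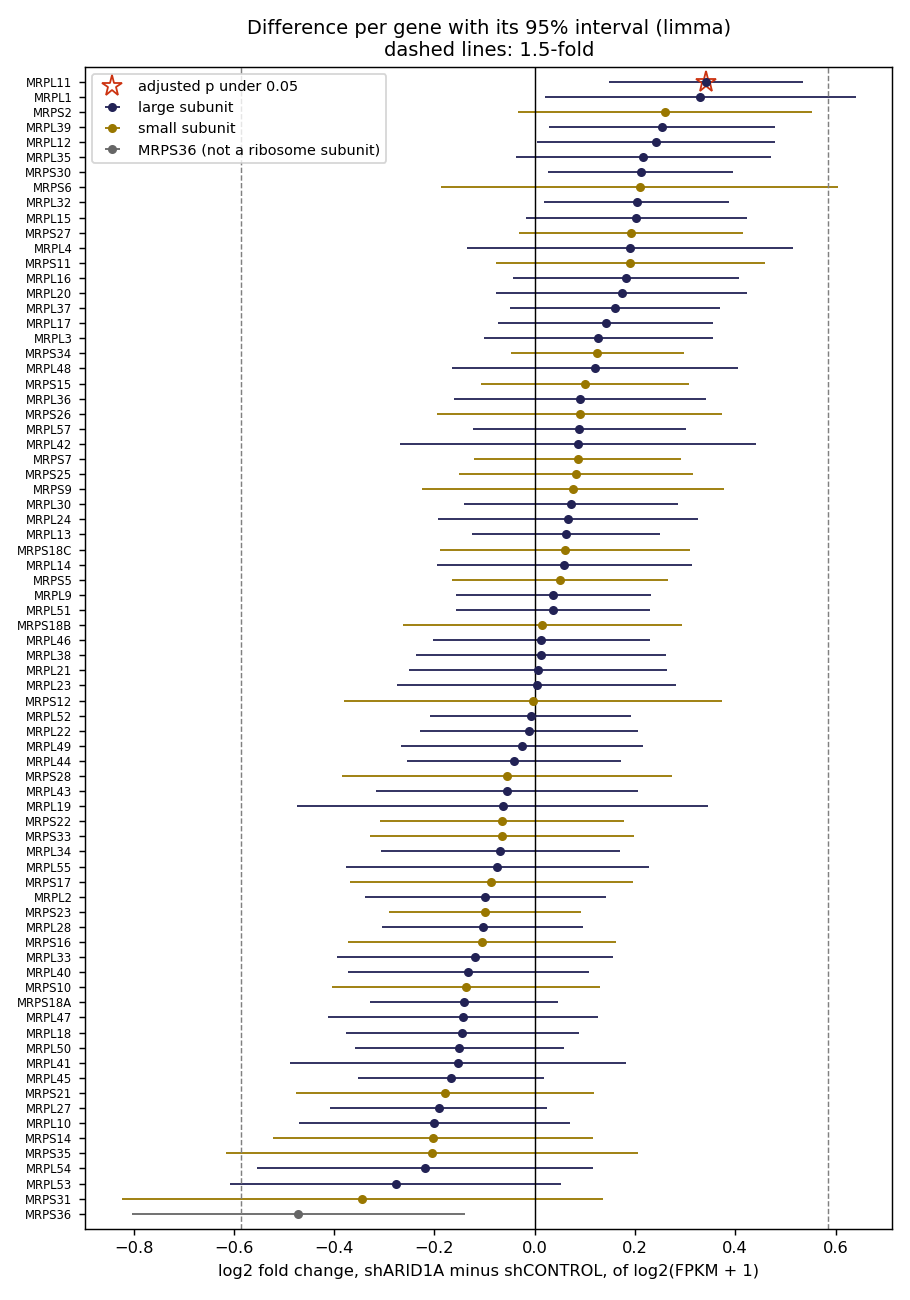
Log2 fold change of log2(FPKM + 1), shARID1A minus shCONTROL, for the 76 genes in order of size, each with its 95% interval from limma. Colours mark the subunit, dashed lines mark 1.5-fold either way, and the star marks MRPL11, the gene with an adjusted p under 0.05. Intervals stay within the dashed lines for 70 of the genes.

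Spread between the shARID1A samples followed the GC content of the genes. For each gene, the log2 level in shARID1A replicate 3 minus that in replicate 2 was set against the GC percent of the longest coding transcript in GENCODE 29. Pearson's r was -0.61 (Spearman's rho -0.66) across the 76 genes and -0.69 (rho -0.73) across 11463 genes tested, values across genes that share the same pair of libraries. For the 23 genes under 45% GC the median difference was 0.195, and replicate 3 was the higher in 17 of them. Between 45% and 55% GC the median was -0.17, with replicate 3 higher in 11 of 33 genes, and over 55% GC it was -0.285, with replicate 3 higher in 1 of 20. Within shCONTROL, replicate 3 minus replicate 1 also fell with GC content across the 76 genes (r = -0.40, rho -0.43). Across all genes tested that r was -0.10, and for shCONTROL replicate 2 minus replicate 1 it was -0.07 across the 76 genes. The lowest of the shARID1A samples was replicate 3 in 43 genes, replicate 2 in 24 and replicate 1 in 9.

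MRPS31 (39.7% GC) and MRPS35 (41.1% GC) lay at the AT-rich end of this relation. The difference between the groups had no such relation to GC content, with r = 0.145 across the 76 genes and 0.01 across all genes tested. The 76 genes had GC contents from 35.0% to 72.0%, with a median of 48.7% against 48.3% for all genes tested, and a median length of 1325 bases against 3170 bases. The part of GC content in the counts of genes called was not tested beyond the corrected fits.

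**Figure D4:**
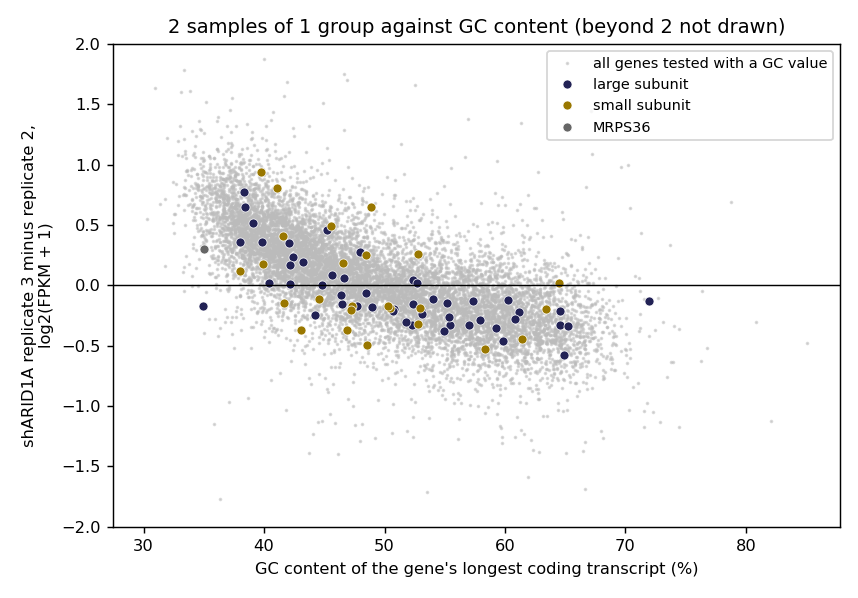
Log2(FPKM + 1) in shARID1A replicate 3 minus that in replicate 2 (vertical axis) against the GC percent of the longest coding transcript (horizontal axis). Coloured points are the 76 genes and grey points all genes tested with a GC value. Points fall from left to right, with medians of 0.195 under 45% GC and -0.285 over 55% GC for the coloured points.

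Promoters of the genes were read from RefSeq, GRCh38.p14, as windows of 300 bases, 250 before and 50 after the annotated start. A window was present for 69 of the 77 genes, and 27305 windows were searched in all. Exact matches on either strand were sought to a core of NRF1 (GCATGCG), of the ETS family that includes GABPA (CCGGAAG), of YY1 (AAGATGG) and of the E-box (CACGTG), factors known as regulators of nuclear genes for mitochondria or, for the E-box, bound by MYC. No core is contained in another, but the last letters of the ETS core (AAG) are the first of the YY1 core, so matches to these can overlap. A match is a description of letters, not a binding site.

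The YY1 core was present in 23 of the 69 windows (33.3%), against 7.94% of the 9233 windows of genes tested and 6.06% of all windows. The ETS core was present in 28 (40.6%, against 20.6% and 10.7%), the NRF1 core in 7 (10.1%, against 6.78% and 4.13%) and the E-box in 7 (10.1%, against 10.3% and 7.43%). At least 1 of the 4 cores was present in 46 windows (66.7%, against 38.0% and 24.5%). Of the 24 YY1 matches in the windows of these genes, 20 (83.3%) read in the direction of the gene. After the start lay 16 of the 24 (66.7%). Among the YY1 matches in the windows of genes tested, these shares were 69.3% and 53.3%. In 13 of the 24 matches (54.2%) the letters CGG followed the core, against 37.1% of the YY1 matches in the windows of genes tested. The core contains the letters ATG, and whether a match covers a start codon was not examined.

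The next windows show the YY1 core where it was found, in capitals, in the 3 genes with the highest log2 fold changes after MRPL11 among those that hold it and in the 2 with the lowest. They are MRPS30 (chr5:44808949-44808978, plus strand), MRPL32 (chr7:42932144-42932173, plus strand), MRPS27 (chr5:72320206-72320235, minus strand), MRPL50 (chr9:101398577-101398606, minus strand) and MRPL45 (chr17:38297170-38297199, plus strand). Each is written 5′ to 3′ along the gene, and in MRPL32 the core lies on the other strand.
MRPS30: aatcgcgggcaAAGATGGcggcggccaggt
MRPL32: cccgcgctccgCCATCTTtacccgaagagc
MRPS27: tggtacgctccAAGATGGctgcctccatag
MRPL50: ggatctcatcgAAGATGGcggcgcgatctg
MRPL45: tttgcgggaacAAGATGGcagcccccatac

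The same was done for the ETS core, in the 2 genes with the highest and the 3 with the lowest log2 fold changes among those that hold it. They are MRPL16 (chr11:59810766-59810795, minus strand), MRPL20 (chr1:1407319-1407348, minus strand), MRPL54 (chr19:3762650-3762679, plus strand), MRPL53 (chr2:74472734-74472763, minus strand) and MRPS31 (chr13:40771204-40771233, minus strand). In MRPL16 and MRPL54 the core lies on the other strand.
MRPL16: agtgaacacaaCTTCCGGccccactgagcg
MRPL20: cgaccttcgccCCGGAAGtatcgcaggggc
MRPL54: gccactgacgtCTTCCGGaaacgtgcactt
MRPL53: gcagccggcggCCGGAAGtctatcccgcag
MRPS31: aaggcgccaggCCGGAAGcggaagagaggg

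Genes with and without a core had overlapping ranges of log2 fold change. The 22 tested genes with the YY1 core had a median of 0.01 (-0.17 to 0.34), and the 46 without it a median of 0.04 (-0.47 to 0.33). The 28 with the ETS core had a median of -0.07 (-0.34 to 0.18), and the 40 without it a median of 0.07 (-0.47 to 0.34). The 7 with the NRF1 core had a median of 0.06.

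The genes of the factors themselves did not pass the test. YY1 had 48.8, 47.7 and 44.7 FPKM with shCONTROL and 38.2, 31.8 and 40.3 FPKM with shARID1A. It was lower in every shARID1A sample and just missed the threshold (log2 fold change -0.35, SE 0.11, adjusted p = 0.0566, limma), and it was called lower in 5 of 22 alternatives. NRF1, which drives many nuclear genes for mitochondria, had 5.95, 5.53 and 4.91 FPKM against 7.59, 7.83 and 5.70 FPKM, with overlap (log2 fold change 0.31, adjusted p = 0.155, limma). It was called higher in 4 of 22 alternatives, with adjusted p down to 0.0197. GABPA, an ETS family factor, had 5.20, 5.42 and 5.42 FPKM against 3.56, 3.19 and 6.77 FPKM, with replicate 3 of shARID1A above all others (log2 fold change -0.26, adjusted p = 0.430, limma). Without that sample GABPA was called lower (log2 fold change -0.54, adjusted p = 0.00815, limma). PPRC1, a coactivator of these factors, had 24.3, 24.7 and 23.3 FPKM against 27.3, 34.0 and 24.7 FPKM (log2 fold change 0.23, adjusted p = 0.225, limma), and it was called higher in both GC-corrected fits. None of the 8 regulators tested was called by limma, beside 2 with an unadjusted p under 0.05. With the replicate number as a block, both were called, YY1 lower (adjusted p = 0.0460, limma) and PPARGC1B, another coactivator, higher (log2 fold change 0.41, adjusted p = 0.0429, limma).

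Genes that work with the mitochondrial ribosome were then counted in the same fit. Of 16 mitochondrial translation factor genes, none was called higher and MTIF3 was called lower, with a median log2 fold change of -0.04. MTIF3, which encodes an initiation factor that keeps the subunits apart until initiation, had 22.4, 21.5 and 23.9 FPKM with shCONTROL and 14.2, 13.2 and 19.6 FPKM with shARID1A. It fell in every shARID1A sample (log2 fold change -0.52, SE 0.14, adjusted p = 0.0428, limma), and the call was lost in 10 of 22 alternatives, including leaving out any single shCONTROL sample or shARID1A replicate 1 or 2. With the replicate block 2 of the 16 genes were called lower, MTIF3 and METAP1D, which encodes a mitochondrial methionine aminopeptidase (log2 fold change -0.50, adjusted p = 0.0225 with the block and 0.0516 without it, limma).

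Of the 26 genes of mitochondrial ribosome assembly factors that were tested, YBEY was called lower and none higher. Their median log2 fold change was -0.13, and 2 of the 26 values were positive (7.69%, against 38.1% of all genes tested). YBEY, which encodes a ribonuclease needed for small subunit assembly, had 3.50, 3.78 and 2.80 FPKM with shCONTROL and 2.09, 1.75 and 0.971 FPKM with shARID1A. The groups did not overlap (log2 fold change -0.76, SE 0.18, adjusted p = 0.0263, limma), and the call was lost in 4 of 21 alternatives, among them leaving out shCONTROL replicate 1 or 2.

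Of the other lists, none of the 19 mitochondrial aminoacyl-tRNA synthetase genes (median log2 fold change -0.07, 1 with an unadjusted p under 0.05 in limma) and none of the 19 genes of mitochondrial transcription and RNA processing (median -0.07, 1 with an unadjusted p under 0.05) was called. With the replicate block, TFB2M of the latter list, a mitochondrial transcription factor, was called lower (log2 fold change -0.38, adjusted p = 0.0302, limma). The 5 ribosome proteins outside the symbol rule, encoded by DAP3, AURKAIP1, CHCHD1, PTCD3 and GADD45GIP1, held no call and no unadjusted p under 0.05 in limma, with a median of -0.07. For scale, 1 of 82 cytosolic ribosomal protein genes was called higher and none lower (median 0.07), and 3 of 77 nuclear genes of the respiratory chain were called higher and 3 lower (median -0.01). These lists differ in level, and no test of the difference between lists was made.

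Several values could hold reads of neighbouring genes, or could lack reads shared with them, since the labels do not give the strandedness of the libraries. In RefSeq, 22 of the genes overlap another gene analysed here, and 8 do so over at least 25% of their span. These 8 are MRPS25, MRPS18C, MRPS2, MRPS16, MRPL43, MRPS34, MRPL34 and MRPS6, with DNAJC9-AS1 covering 100% of MRPS16 and SEMA4G covering 80.6% of MRPL43. MRPL11 is not among the 22.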

How the data were processed

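RNA was sequenced in 6 samples of A431 cells. The authors deposited 1 table of FPKM values per gene and sample with gene lengths. HISAT2 2.0.5 and featureCounts 1.5.0-p1 are listed per the submitters' processing notes. The labels give neither genome build nor strandedness. Of 26048 rows, 6234 are empty and 393 are on another scale and were left out, none of them with a symbol of the genes described. For the other 19421 rows, FPKM times length gave whole numbers of reads in 100% of cases (within 0.01 reads), here called recovered reads, and 19344 gene IDs matched RefSeq. Differences were tested two-sided with limma 3.58.1 under R 4.3.3 (lmFit, then eBayes with trend) on log2(FPKM + 1). The 11599 genes whose mean reached 1 FPKM were fitted, with Benjamini-Hochberg adjustment over them and a threshold of 0.05. Log2(FPKM + 1) understates the change of low genes. The script was tested on simulated data. Tables were handled with Python 3.11.15, pandas 2.3.3, numpy 2.4.6, scipy 1.17.1 and matplotlib 3.10.9.

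The genes, lists and rules were chosen with earlier results of these data known. By rule, the genes named were ARID1A, those past the threshold among the genes described, the 3 highest and 3 lowest in level, the MRPS18 copies, MRPL12, MRPL45, MRPS12, MRPS27, MRPL44, MRPL58, those past the threshold in the related lists, NRF1, GABPA, YY1 and PPRC1. Promoters came from RefSeq and GC content and exon lengths from GENCODE 29 transcripts (98.8% of genes tested had a GC value).

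Between samples of a group, the chi-square per degree of freedom of the recovered reads was 5.38 to 84.7, so no pair was a duplicate. Deviations from the group mean correlated across genes at 0.321, 0.187 and 0.315 for equal replicate numbers and at -0.302 to 0.0859 for unequal ones. All equal-number values are over 0.1, so the numbers were taken as pairs, on the evidence of the values since the labels state no pairing. The reported p-values, intervals and calls do not use these pairs unless the replicate block is named, and this block was an alternative. The other alternatives were pseudocounts of 0.1 and 5 FPKM, no filter and a minimum of 5 FPKM, an equal FPKM sum, upper quartile, quantile and cyclic loess scaling, length and GC corrections, eBayes without trend and robust eBayes, limma voom on the recovered reads, GENCODE lengths for the order of levels, and leaving out each sample. For voom the recovered reads were whole in 100% of values, and it called 743 genes higher and 1393 lower.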

Additional observations from a re-analysis of the deposited data

How the results depend on the processing

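Of 76 genes, 1 was called higher and 0 lower as reported, and 16 alternatives kept all samples. With the replicate block the count was 1 higher (MRPL11) and 0 lower, beside 23.6% of all genes tested. It was 0 with no filter, where 18973 genes share the adjustment (7.77% of all genes called). It was 3 higher with the length correction (16.9%) and 4 with the replicate block and length correction (23.0%), each with a median log2 fold change of 0.10 in place of 0.01. It was 13 higher with the GC correction (27.3%), with a median of 0.085. It was 16 higher and 1 lower with the replicate block and GC correction (34.6%), with the same median. These percentages count both directions, and the block with GC correction called 2061 of all genes higher and 1951 lower. Both GC fits were chosen after seeing the data. The replicate block with cyclic loess called MRPL1 and not MRPL11 (20.6%). Leaving out 1 sample gave 0 to 3 higher, 0 to 3 lower and a median from -0.006 to 0.04. The median stayed above that of all genes in the 16 alternatives. All genes split into 679 higher and 1265 lower as reported, 947 and 831 with quantile, 1035 and 920 with length and 1664 and 1501 with GC correction. Signs turned for genes with differences near 0, none of them called. MRPS12 was 0.03 with upper quartile scaling, 0.082 with the length correction and 0.048 with the GC correction, with or without the replicate block, and -0.143 to 0.152 without single samples. MRPL44 was 0.038 in those length and GC fits and 0.002 with the block and cyclic loess. MRPL51 was -0.029 with quantile normalization, -0.017 with the block and cyclic loess and -0.007 to 0.082 without single samples. Leaving out single samples also gave -0.089 to 0.07 for MRPS18B and -0.021 to 0.13 for MRPS18C. The cause was not tested in any of these. The replicate block by itself added calls of YY1, PPARGC1B, METAP1D and TFB2M in the related lists. It changed no call of MRPL11, MTIF3 or YBEY. Other alternatives added calls in these lists too. Quantile normalization and the length correction each called 1 regulator higher, against 0 as reported. A pseudocount of 5 FPKM called 2 translation factors lower, against 1 as reported. With 3 samples per group, the spread between them limits the precision.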
